A study of Rattus norvegicus with 16 samples.

Results

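The corticosteroid receptors and the dehydrogenases that control their ligand were represented by 7 of the 8740 non-control probe sets on the array, a probe set being a group of short oligonucleotides that reads 1 transcript or a few. The members were the probe sets to which the platform annotation gives the symbol Nr3c1 (3 probe sets), Nr3c2 (2), Hsd11b1 (1) or Hsd11b2 (1), dim ones included. These are 4 of the 4736 genes that have a probe set with a single symbol. The samples were both kidneys of 8 rats, 16 arrays in all, with the left kidney of each animal as its control. Right kidneys were ACTH-treated in rats 1 and 5, DEX-treated in rats 3 and 7, and saline-treated in rats 2, 4, 6 and 8, per the array titles. The series description counts fewer saline rats, 2 per treatment, and the titles were followed. ACTH is adrenocorticotropic hormone, the pituitary hormone that drives adrenal corticosteroid output, and the labels do not spell out DEX. Strain, sex, age, dose, route and time are not given in the labels used here, nor is it stated whether the left kidneys were exposed to the hormones.

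Corticosteroids act on the kidney through nuclear receptors that bind DNA once occupied by hormone. Nr3c1 encodes the glucocorticoid receptor, found in most kidney cells, and Nr3c2 the mineralocorticoid receptor, best known for sodium retention in the distal nephron. Hsd11b2 encodes the dehydrogenase that inactivates corticosterone in the distal nephron and so keeps the mineralocorticoid receptor available to aldosterone. Hsd11b1 encodes the reductase that works in the opposite direction and regenerates active glucocorticoid. In rat kidney it is known from the proximal tubule.

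Kidney markers were bright. The phosphate transporter Slc34a1 of the proximal tubule had a median signal of 5725 over the 16 arrays, the thick limb protein Umod 2364, and the water channel Aqp2 of the collecting duct 1185. Of 4 adrenal cortex genes, Star had a median of 37.5, Cyp11b2 39.4, Cyp11a1 101 and Cyp21a1 116. Arrays of rats 5 to 8 and of rats 1 to 4 formed separate clusters that the labels do not name. The mean correlation of centred profiles was 0.39 within a cluster and −0.46 between clusters. Each cluster held 1 ACTH, 1 DEX and 2 saline rats. Signals are the authors' values on a linear scale with no detection calls, so a dim probe set cannot be told from background. They come from kidney tissue, in which more cells of a type and more RNA per cell cannot be told apart. The array titles do not say whether the whole organ or a part was used. Signal also depends on the probe, so a probe set's place on the array does not rank transcripts by abundance.

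Mean signal shows how far each member lay from the dim end of the array. Hsd11b2 lay at percentile 93.8 of mean signal among all probe sets, and Hsd11b1 at percentile 95.4. The receptor probe sets lay nearer to that end. The brightest Nr3c1 probe set (rc_AA893618_s_at) lay at percentile 60.2, and the other receptor probe sets lay between percentiles 19.3 and 35.2.

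No member passed the test of either hormone over saline. An effect over saline subtracts the mean right minus left difference of saline rats from that of ACTH or DEX rats, on the log2(signal + 16) scale, tested in limma with adjustment over all 8740 probe sets. For ACTH, 0 of 7 members were called, where 0.252% of all probe sets were (22, with 11 higher and 11 lower). For DEX, 0 of 7 were called and 0% of all probe sets. At an unadjusted p under 0.05, limma gave 0 members for either hormone, against 666 of all probe sets for ACTH and 242 for DEX. With 2 rats per hormone the intervals were wide, and they are given below.

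Hsd11b2, the inactivating enzyme, had the largest single change among the members. Its signal was 872 and 1353 in the ACTH right kidneys of rats 1 and 5, against 812 and 713 in their left kidneys. In the DEX rats 3 and 7 it was 794 and 713 on the right, against 734 and 726 on the left. In saline rats 2, 4, 6 and 8 the right kidneys had 969, 907, 825 and 875, against 974, 758, 843 and 720 on the left. One array, the right kidney of ACTH rat 5, stood above all the others, and ACTH rat 1 lay inside the saline range. The right minus left change was 0.10 and 0.91 in the ACTH rats, 0.11 and −0.03 in the DEX rats, and averaged 0.12 ± 0.17 (SD, n = 4) in the saline rats.

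The fitted ACTH effect on Hsd11b2 was 0.38 ± 0.21 (SE, 2 ACTH and 4 saline rats), with a 95% interval of −0.07 to 0.84 (limma adjusted p = 0.741). It rested on rat 5. Without that rat the value was −0.02, and without rat 1 it was 0.79. Within rats 5 to 8 alone the effect was 0.79, and within rats 1 to 4 it was −0.02. For DEX the effect was −0.08 ± 0.21, with an interval of −0.54 to 0.37 (limma adjusted p = 0.999). The ACTH effect exceeded the DEX effect by 0.46 ± 0.24 (interval −0.06 to 0.99, limma adjusted p = 0.615), a comparison in which 0 of 7 members and 0.343% of all probe sets were called. That difference ran from 0.059 to 0.87 with 1 rat left out. The ACTH and DEX effects share the saline rats.

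**Figure D1:**
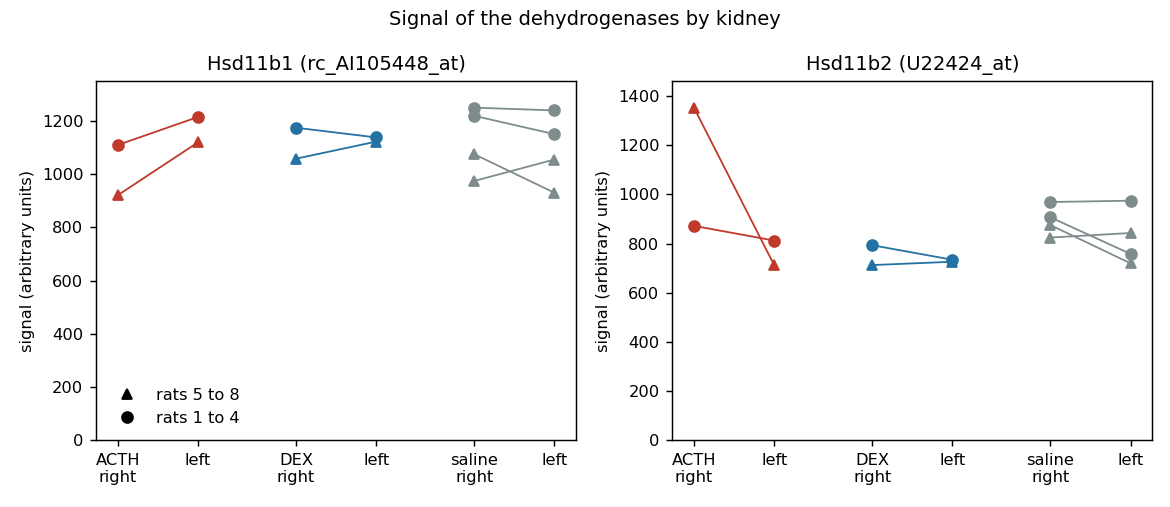
Signal in arbitrary units (y axis, from 0) of Hsd11b1 and Hsd11b2 in the right and left kidney of each rat, grouped by treatment (x axis), with a line joining the kidneys of 1 rat and marker shape giving the array cluster. Hsd11b2 reached 1353 in the right kidney of ACTH rat 5, while the other 15 arrays lay at or under 974.

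Right against left within the ACTH rats, Hsd11b2 had a log2 change of 0.51 ± 0.17 (SE, interval 0.13 to 0.88), not past the threshold (limma adjusted p = 0.166). It was the 1 of 7 members with an unadjusted p under 0.05 in that limma comparison, against 1238 of all probe sets. At that cutoff the array as a whole held many such probe sets, so this does not set Hsd11b2 apart. In this comparison 0 of 7 members were called, against 1.95% of all probe sets. Without rat 1 the change was that of rat 5 alone, 0.91 ± 0.18, and it passed (limma adjusted p = 0.0193), with the lone rat assumed to vary like the others. In that fit 2.85% of all probe sets were called. Without rat 5 it was 0.10. In the DEX rats the right over left change was 0.04 ± 0.17, with 0 of 7 members and 0% of all probe sets called. In the saline rats it was 0.12 ± 0.12, with 0 of 7 members and 0.0114% of all probe sets called.

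Markers of the distal nephron, where Hsd11b2 is known to act, were high in the same array. Of the 13 measured distal markers other than Hsd11b2, 11 had a positive right minus left change in ACTH rat 5 (mean 0.52). In ACTH rat 1, 6 of 13 were positive (mean −0.09). The means were 0.03 and 0.09 in DEX rats 3 and 7, and ran from −0.04 to 0.17 in the saline rats. In rat 5, Aqp2 changed by 0.89, the salt cotransporter Slc12a3 of the distal convoluted tubule by 1.03, the sodium pump regulator Fxyd4 of the collecting duct by 1.47 and the vasopressin receptor Avpr2 by 0.84. The calcium-binding protein S100g had −0.56 and the potassium channel Kcnj1 −0.06. In saline rats, Aqp2 changed by −0.11 to 0.30, Slc12a3 by −0.10 to 0.66, Fxyd4 by −0.47 to 0.98 and Avpr2 by −0.05 to 0.15. In ACTH rat 1 these genes had −0.39, 0.17, −1.15 and −0.32.

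The summed signal of the 13 markers ran from 9876 to 10797 in ACTH right kidneys, 7351 to 8138 in DEX right kidneys, 6835 to 9969 in saline right kidneys and 6563 to 9632 in left kidneys. None of them was at 0, and the lowest value was 15.6, for the water channel Aqp4. Over the 16 arrays, with each cluster's mean removed, Hsd11b2 and the mean of these markers had a Pearson r of 0.88, and 0.59 without rat 5. The kidneys of a rat share that animal, so this r is a description. With the marker mean as a covariate, an alternative added after the data were seen, the ACTH effect on Hsd11b2 was 0.16 ± 0.16 (limma adjusted p = 1.00). In rat 5 all 4 of 4 erythrocyte genes were positive, with a mean of 0.80, and so were 9 of 10 smooth muscle and mesangium genes, with a mean of 0.34. In ACTH rat 1 these means were −0.33 and 0.18. The part of the distal markers, or of either of these other lists, in the Hsd11b2 value was not tested.

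**Figure D2:**
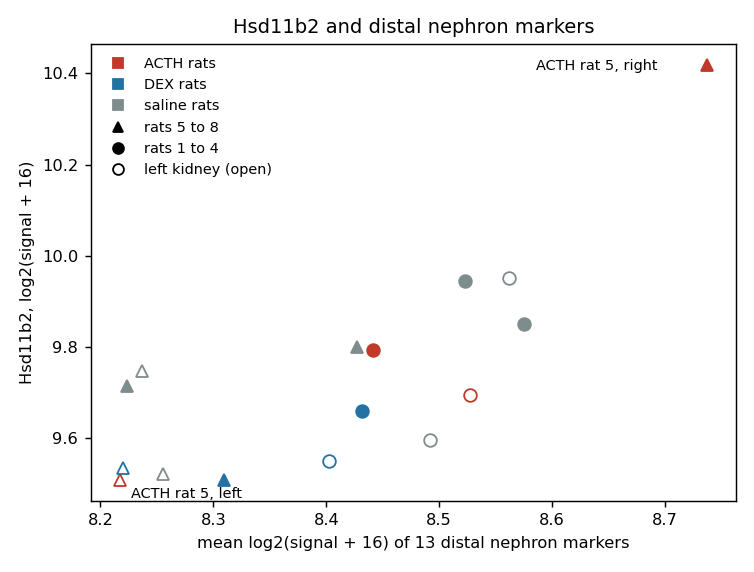
Hsd11b2 (y axis) against the mean of 13 distal nephron markers (x axis), both as log2(signal + 16), for 16 arrays, with filled symbols for right and open symbols for left kidneys. The right kidney of ACTH rat 5 is highest on both axes and its left kidney is lowest on both. Pearson r was 0.88 with each cluster's mean removed and 0.59 without rat 5.

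Mean levels of Hsd11b2 in the right kidneys ran in the order ACTH, saline, DEX. The means were 1113 ± 340 (SD, n = 2) for ACTH, 753 ± 57.1 (SD, n = 2) for DEX and 894 ± 60.5 (SD, n = 4) for saline. The ACTH and saline ranges overlapped, and ACTH rat 1, at 872, lay below the saline mean. Both DEX right kidneys lay below all 4 saline right kidneys, which made Hsd11b2 the 1 of 7 members outside the saline range there, where 6.92% of all probe sets were. The left kidneys of the DEX rats were low as well, with a mean of 730 ± 5.70 (SD, n = 2), against 824 ± 113 (SD, n = 4) in the left kidneys of the saline rats. With right kidneys alone the DEX value was −0.24 (limma adjusted p = 1.00).

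Hsd11b1, the reactivating enzyme, had lower values after ACTH that did not pass. Its signal was 1110 and 921 in the right kidneys of ACTH rats 1 and 5, against 1215 and 1119 in their left kidneys. In DEX rats 3 and 7 it was 1174 and 1058 on the right, against 1138 and 1122 on the left. In saline rats 2, 4, 6 and 8 the right kidneys had 1219, 1250, 974 and 1075, against 1150, 1239, 1055 and 930 on the left. The ACTH right kidneys overlapped the saline right kidneys in level.

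The right minus left change of Hsd11b1 was −0.13 and −0.28 in the ACTH rats, below all 4 saline rats, whose changes averaged 0.05 ± 0.13 (SD, n = 4). The nearest saline rat, rat 6, had −0.11. Of the members, 1 of 7 lay outside the saline range in this way after ACTH, and so did 13.9% of all probe sets. The fitted ACTH effect was −0.25 ± 0.16 (SE, interval −0.59 to 0.09, limma adjusted p = 0.808). Rats 5 to 8 alone gave −0.32, and rats 1 to 4 alone gave −0.18. For DEX the effect was −0.07 ± 0.16 (interval −0.41 to 0.27, limma adjusted p = 0.999). The difference between the hormones was −0.18 ± 0.18 for Hsd11b1.

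Adipose tissue also expresses Hsd11b1, and fat markers varied between these arrays. Their summed signal over 10 genes was 13050 in the right kidney of ACTH rat 1 and 2024 in that of ACTH rat 5. It ran from 1307 to 1622 in DEX right kidneys, 1325 to 1950 in saline right kidneys and 1243 to 4221 in left kidneys. In ACTH rat 1 all 10 fat markers had a positive change (mean 1.504), and Hsd11b1 had −0.13. The mean change of these markers was ordered by treatment, but it also varied widely among the saline rats. It was 0.37 in ACTH rat 5 and negative in both DEX rats. In saline rats 2, 4, 6 and 8 it was 0.33, −0.28, −0.83 and 0.17. Both ACTH rats lay above all saline rats, rat 5 only narrowly, and both DEX rats lay below them. With the mean of the fat markers as a covariate, the ACTH effect was −0.45 for Hsd11b1 (limma adjusted p = 0.437). For Hsd11b2 it was 0.67 (limma adjusted p = 0.376). Both were further from 0 than without the covariate. Since the change in the score was ordered by treatment, these fits cannot separate fat from hormone. The part of fat in either value was not tested. The summed signal of 17 proximal tubule markers was 28913 and 31302 in the ACTH right kidneys, 34287 to 35588 in DEX, 31407 to 37314 in saline right kidneys and 30030 to 33787 in left kidneys. Its part in the Hsd11b1 value was not tested.

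Nr3c1, the glucocorticoid receptor, gave no common direction over its 3 probe sets. The brightest, rc_AA893618_s_at, had 87.6 and 122 in the ACTH right kidneys of rats 1 and 5, against 93.4 and 107 in their left kidneys. In DEX rats 3 and 7 it had 124 and 112 on the right, against 127 and 106 on the left. In saline rats 2, 4, 6 and 8 it had 88.6, 118, 130 and 136 on the right, against 70.4, 113, 115 and 129.5 on the left. Every treatment overlapped the others, and saline rat 2 was the lowest in its group on either side. The ACTH effect was −0.09 ± 0.15 (SE, interval −0.42 to 0.23, limma adjusted p = 0.978), and the DEX effect was −0.12 ± 0.15 (interval −0.44 to 0.21, limma adjusted p = 0.999).

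The second Nr3c1 probe set, rc_AI137538_at, had an ACTH effect of −0.07 ± 0.14 (interval −0.37 to 0.23) and a DEX effect of −0.20 ± 0.14 (interval −0.50 to 0.09). Its right minus left changes in the DEX rats, −0.17 and −0.05, were both below the lowest saline rat (rat 2 at −0.04). It was the 1 of 7 members outside the saline range after DEX, where 11.4% of all probe sets were. The signals behind this were 41.0 and 45.8 in the DEX right kidneys, against 47.9 and 48.0 in their left kidneys. In the 4 saline rats the right kidneys had 40.7 to 55.5 and the left kidneys 39.7 to 45.6, so the right kidneys overlapped fully.

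The third Nr3c1 probe set, M14053_at, had positive effects, 0.07 ± 0.15 for ACTH (interval −0.26 to 0.40) and 0.18 ± 0.15 for DEX (interval −0.15 to 0.51). Neither passed in limma, with adjusted p = 0.986 and 0.999. In the DEX rats its changes were 0.37 and −0.08. What set this probe set apart was the array cluster. Its signal was 22.1 to 27.1 in rats 5 to 8, with a median of 23.8, and 30.8 to 55.8 in rats 1 to 4, with a median of 41.8, with no overlap. It was the 1 of 7 members whose clusters did not overlap, as did 16.1% of all probe sets. The brightest Nr3c1 probe set differed the other way, with a median of 119 in rats 5 to 8 and 103 in rats 1 to 4. These 2 probe sets of 1 gene differed in opposite directions between the clusters.

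**Figure D3:**
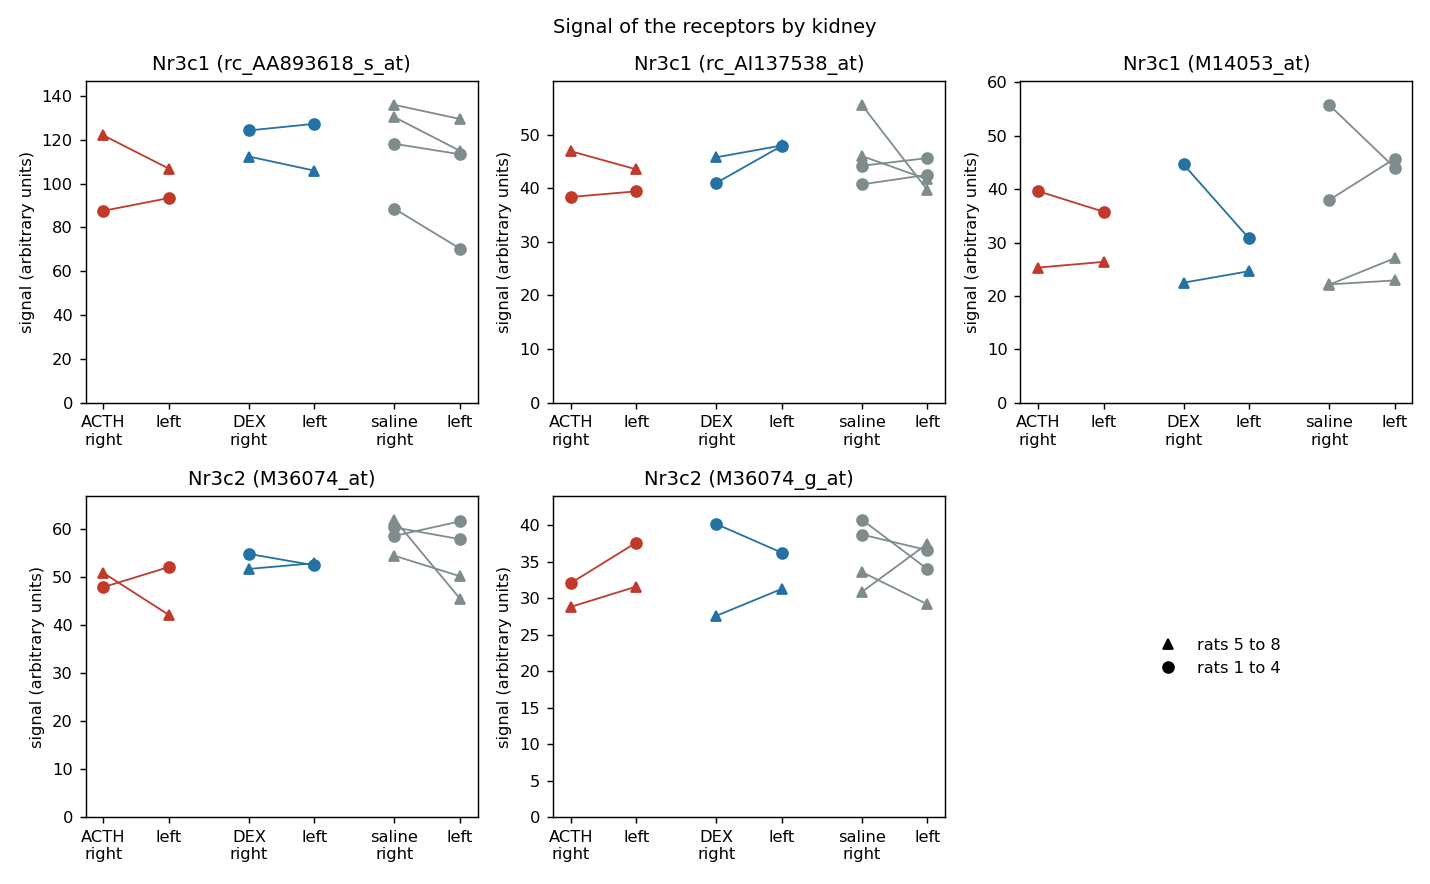
Signal in arbitrary units (y axes, each from 0) of the 3 Nr3c1 and 2 Nr3c2 probe sets in the right and left kidney of each rat, grouped by treatment (x axes), with a line joining the kidneys of 1 rat. For M14053_at the triangles of rats 5 to 8 lie between 22.1 and 27.1 and the circles of rats 1 to 4 between 30.8 and 55.8, while treatments overlap.

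Nr3c2, the mineralocorticoid receptor, was low in signal in both probe sets. M36074_at had 47.8 and 50.8 in the ACTH right kidneys of rats 1 and 5, against 52.0 and 42.1 in their left kidneys. In DEX rats 3 and 7 it had 54.8 and 51.6 on the right, against 52.4 and 52.8 on the left. In saline rats 2, 4, 6 and 8 it had 58.5, 60.3, 54.4 and 61.9 on the right, against 61.5, 57.8, 50.1 and 45.5 on the left. Both ACTH right kidneys lay below all 4 saline right kidneys, which held for 1 of 7 members in this comparison, and 9.62% of all probe sets lay outside the saline right kidneys after ACTH. The left kidneys of the ACTH rats overlapped those of the saline rats.

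The ACTH effect on this Nr3c2 probe set was −0.05 ± 0.15 (SE, interval −0.37 to 0.27, limma adjusted p = 0.989). With right kidneys alone, which leaves out the pairing, it was −0.19 (limma adjusted p = 0.548), with 0 of all probe sets called. In left kidneys alone, the fitted difference of ACTH over saline rats was −0.14 (interval −0.38 to 0.09). The DEX effect on this probe set was −0.09 ± 0.15 (interval −0.41 to 0.22). The other Nr3c2 probe set, M36074_g_at, reads the same transcript. It had an ACTH effect of −0.17 ± 0.13 (interval −0.44 to 0.11, limma adjusted p = 0.874) and a DEX effect of −0.05 ± 0.13 (interval −0.33 to 0.22). Its signals ran from 28.8 to 32.1 in ACTH right kidneys, 27.6 to 40.2 in DEX right kidneys, 30.9 to 40.8 in saline right kidneys and 29.2 to 37.7 in left kidneys. With cluster means removed, the 2 Nr3c2 probe sets correlated at r = 0.27 over the 16 arrays, as a description.

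**Figure D4:**
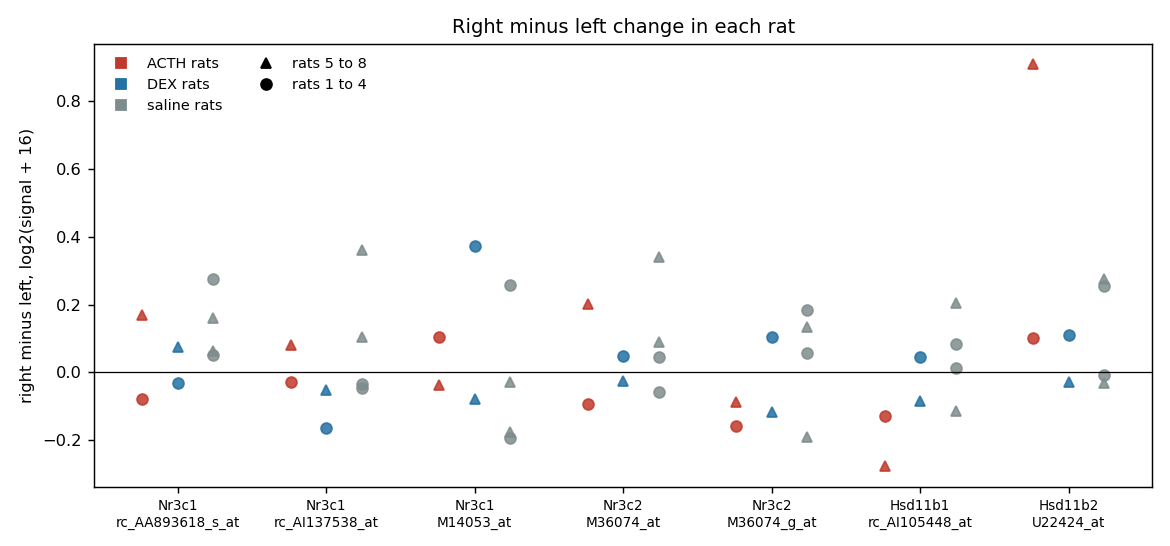
Right minus left change in log2(signal + 16) (y axis) for the 7 member probe sets (x axis), 1 point per rat, coloured by treatment, with marker shape giving the array cluster. All points lie between −0.28 and 0.37 except Hsd11b2 in ACTH rat 5, at 0.91.

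**Figure D5:**
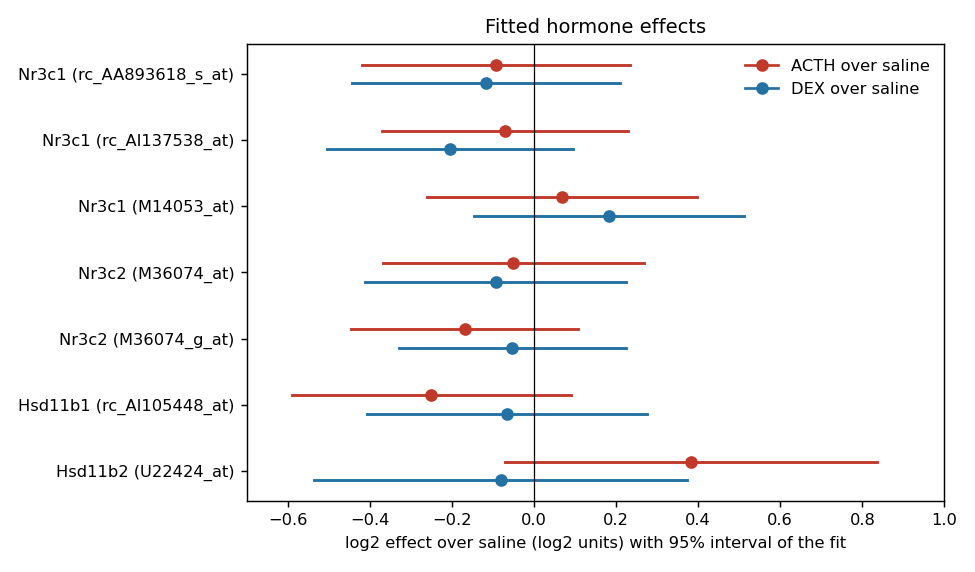
Fitted ACTH and DEX effects over saline in log2 units (x axis) for the 7 member probe sets (y axis), with dots for the estimate and lines for its 95% interval. All 14 intervals include 0.

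Intervals set limits on what these arrays could show. For the 3 Nr3c1 and 2 Nr3c2 probe sets, the ACTH intervals lay between −0.44 and 0.40 and the DEX intervals between −0.50 and 0.51. Since log2(signal + 16) compresses the changes of dim probe sets, these limits apply to that scale. A value that missed the threshold does not show that a receptor was unchanged. With the ACTH and DEX rats pooled against saline, effects over the 7 members ran from −0.16 for Hsd11b1 to 0.15 for Hsd11b2, with 0 of 7 and 0% of all probe sets called. An exact permutation test of 4 hormone against 4 saline rats gave unadjusted two-sided p values from 0.171 to 0.771 over the 7 probe sets, where 0.0286 is the smallest this design allows. Between 2 and 4 rats the smallest is 0.133.

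Over all 8 rats, whatever the treatment, the right minus left change averaged 0.20 ± 0.31 (SD, n = 8) for Hsd11b2, positive in 5 of 8 rats. That mean includes 0.91 in ACTH rat 5, while the other rats ran from −0.03 to 0.28. For the brightest Nr3c1 probe set it averaged 0.09 ± 0.11 (SD, n = 8), positive in 6 of 8. Exact sign-flip permutation tests gave unadjusted two-sided p values of 0.0625 and 0.0781, and 0.242 to 0.859 for the other 5 members.

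Left control kidneys were also compared between treatments. For ACTH rats against saline rats, with the array cluster as a term, member differences ran from −0.14 to 0.10, with 0 of 7 members and 0.0114% of all probe sets called in limma. Left kidneys of DEX rats against those of saline rats gave −0.20 to 0.13, with 0 of 7 members and 0% of all probe sets called. At an unadjusted p under 0.05 no member qualified in either. By level alone, the left kidneys of the DEX rats lay above all 4 saline left kidneys for rc_AI137538_at of Nr3c1, 1 of 7 members, where 4.73% of all probe sets lay outside. This is the probe set whose right minus left changes in the DEX rats were below those of the saline rats. For the left kidneys of the ACTH rats it was 0 of 7 members and 5.39% of all probe sets.

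Other genes of the corticosteroid pathway were taken from 5 lists, each gene by its brightest probe set. Of all 8740 probe sets, 0.252% were called for ACTH and 0% for DEX. At an unadjusted p under 0.05 in limma there were 666 and 242. The median over all probe sets was 0.01 for ACTH and −0.01 for DEX. Ligand metabolism and delivery had 23 measured genes. None passed for ACTH (12 positive, median 0.01, against 0.01 over all probe sets) or for DEX (14 positive, median 0.02, against −0.01), with 2 and 0 at an unadjusted p under 0.05 in limma. The smallest p for ACTH belonged to Hsd17b4, a peroxisomal hydroxysteroid dehydrogenase also used in fatty acid oxidation, at −0.51 ± 0.20 (SE, limma adjusted p = 0.546), and to Akr1c14, a hydroxysteroid dehydrogenase, at 0.38 ± 0.17. For DEX they were the steroid reductase Akr1d1 at −0.26 ± 0.13 and Hsd17b7, of estrogen and cholesterol synthesis, at 0.13 ± 0.10. Chaperones and cofactors, which fold and assist the receptors, had 12 measured genes and none past the threshold for ACTH (median −0.10) or DEX (median 0.22), with 2 and 0 at an unadjusted p under 0.05. The co-chaperone Dnaja1 had −0.82 ± 0.22 with ACTH (limma adjusted p = 0.227), and the heat shock protein Hspa1a 0.53 ± 0.17. Dnaja1 changed by −0.35 and −1.22 in ACTH rats 1 and 5. Its ACTH effect ran from −1.25 to −0.38 over 18 alternatives. With DEX, Dnajb1 had 0.49 ± 0.25 and the endoplasmic reticulum chaperone Hsp90b1 0.37 ± 0.21.

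Among 31 other nuclear hormone receptors, 0 passed in limma for ACTH (median 0.00) or DEX (median −0.09), with 4 and 2 at an unadjusted p under 0.05. Nr0b2, a repressor that lacks a DNA-binding domain, had 0.51 ± 0.17 with ACTH (SE, limma adjusted p = 0.423). The clock repressor Nr1d2 had −0.64 ± 0.22 with ACTH (limma adjusted p = 0.457) and 0.52 ± 0.22 with DEX. Its ACTH value was −0.05 without the rat term and −1.07 with the fat marker score, and its DEX value was 0.16 without rat 3 and 0.89 without rat 7. The fatty acid receptor Ppard had −0.51 ± 0.20 with DEX.

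Of 13 mineralocorticoid-responsive distal genes, 1 rose with ACTH and 0 fell, where 0.252% of all probe sets were called. Their median was 0.23, against 0.01 over all probe sets. This list shares Scnn1b, Scnn1g, Kcnj1, Slc12a3 and Fxyd4 with the distal nephron markers. Those markers had a mean change of 0.52 in ACTH rat 5 and −0.09 in ACTH rat 1. The gene called was Ndrg2, a stress- and steroid-responsive gene, at 1.13 ± 0.20 (SE, limma adjusted p = 0.0409). Its changes were 1.37 and 0.91 in ACTH rats 1 and 5 and −0.36 to 0.23 in the saline rats. The gene lists were chosen with earlier results of these data known, so values within them, Ndrg2 included, are descriptions. The Ndrg2 call was also fragile. The value stayed positive in all 18 alternatives (0.71 to 1.36) but passed in 6 of them (limma adjusted p from 0.0064 to 0.252). It was lost with the fat marker score (0.71, limma adjusted p = 0.252), without the rat term (limma adjusted p = 0.0940), with right kidneys alone (limma adjusted p = 0.140), after quantile normalization (limma adjusted p = 0.0656), without the intensity trend (limma adjusted p = 0.0529) and without any single rat other than rat 5 (limma adjusted p = 0.0722 to 0.120). Scnn1a, the alpha subunit of the epithelial sodium channel, had 0.45 ± 0.19 (limma adjusted p = 0.567), with 0.18 in rat 1 and 0.81 in rat 5. None of the 13 passed with DEX (median 0.04, 1 at an unadjusted p under 0.05). There Sgk1, the corticosteroid-induced kinase, had 0.87 ± 0.27 (limma adjusted p = 0.999), with changes of 1.42 and 0.12 in DEX rats 3 and 7, and the potassium channel Kcnj1 had 0.35 ± 0.17. Of 21 glucocorticoid-responsive genes, 0 passed for ACTH and 0 for DEX. Their medians were 0.18 and 0.24, against 0.01 and −0.01 over all probe sets, with 14 and 16 positive. At an unadjusted p under 0.05 in limma there were 3 and 5, against 666 and 242 of all 8740 probe sets. Right over left, their median was 0.11 in ACTH rats, 0.07 in DEX rats and −0.11 in saline rats, with 12, 13 and 6 positive. Here too the smallest p for DEX was that of Sgk1. The sulfotransferase Sult1a1 had 1.55 ± 0.30 with ACTH (limma adjusted p = 0.0533, past the threshold in 5 of 18 alternatives, 0.99 without rat 1 and 2.12 without rat 5). The clock gene Per2 had −0.73 ± 0.15 with ACTH (limma adjusted p = 0.0726, past the threshold in 0 of 18 alternatives, −0.50 without the rat term). With DEX, Per2 had 0.43 ± 0.15 (limma adjusted p = 0.999), with changes of 0.51 and 0.13 in DEX rats 3 and 7.

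The genes most like each member over the 16 arrays, with cluster means removed, were sought among 3186 or 3187 named genes, with the dimmest 40% of probe sets left out. For Hsd11b2 they were the sphingolipid desaturase Degs2 (r = 0.91), the histone methyltransferase Ehmt2 (r = 0.91) and Scnn1a (r = 0.89). Without rat 5 these were 0.80, 0.72 and 0.66. For Hsd11b1 they were the coatomer subunit Copb1 (r = 0.85), the elongin subunit Eloc (r = 0.84) and the transcription factor subunit Gtf2a2 (r = 0.80). For the brightest Nr3c1 probe set they were the kinase Cdc42bpb (r = 0.92), the focal adhesion protein Tns1 (r = 0.89) and the G protein subunit Gna12 (r = 0.89). For Nr3c2 they were Sfmbt1, a Polycomb-related protein (r = 0.81), the galactose mutarotase Galm (r = 0.75) and the surface glycoprotein Thy1 (r = 0.71). Kidneys of a rat share the animal, and the values are descriptions of the 16 arrays.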

How the data were processed

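Each deposited value is the linear signal intensity of a probe set, and how the authors summarised and scaled them is not given in the sources used here. RNA was labelled with biotin, per the labels' protocols. Array medians ran from 76.0 to 82.4, so no further scaling was applied. The 59 control probe sets were removed. Values were taken as log2(signal + 16), and no filter on low signal was used, so that the dim members were tested.

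Each of the 8740 probe sets was fitted in limma 3.58.1 (R 4.3.3), with rat, right kidney, ACTH and DEX as terms, leaving 5 residual degrees of freedom, with an intensity trend. P values are two-sided and Benjamini-Hochberg adjusted over all probe sets, with a threshold of 0.05. Left kidneys had a separate fit. Kidneys of 1 rat are paired by the labels. Their deviations from the side means correlated at 0.46 to 0.72, and at 0.13 to 0.47 with the means of the 2 array clusters removed as well. The precision is limited by the number of arrays. The platform annotation gives 1 symbol to 7006 probe sets, several to 308 and none to 1426. From each pathway list, the 2 smallest p values per hormone and any call were named, and the 3 genes most alike each member. The members and lists were chosen with earlier results of these data known. Alternatives were the offset, a filter on dim probe sets, quantile normalization, no rat term, a right kidney term for rats 5 to 8, marker scores as covariates, no trend, right kidneys only, no cluster term, and each rat left out.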

Additional observations from a re-analysis of the deposited data

How the results depend on the processing

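No member passed the threshold under any alternative that kept all rats. In all, 298 of 323 such values kept their sign, as did 261 of 280 with 1 rat left out. The values in this paragraph are log2 effects in limma that changed sign, none past the threshold. Without the replicate block (no rat term), the Nr3c1 probe set M14053_at had −0.023 for ACTH, −0.012 for DEX and −0.018 for both hormones over saline. There rc_AA893618_s_at had 0.014 for DEX over saline, −0.17 for ACTH over DEX and −0.032 right over left in ACTH rats. For the last 2 comparisons rc_AI137538_at had −0.021 and −0.024, and the Nr3c2 probe set M36074_at had −0.083 and −0.048. Right kidneys alone gave the same values for every comparison but right over left, which they cannot give. With the fat marker score, M36074_at had 0.063 for ACTH, M36074_g_at 0.077 and Hsd11b1 0.093 for DEX. With the distal marker score, chosen after seeing the data, rc_AA893618_s_at had −0.016 for ACTH over DEX and −0.0087 right over left in ACTH rats, rc_AI137538_at had −0.051 for the second, and M36074_at had −0.052 and −0.076. The cause of these changes was not tested.

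Leaving out each rat in turn, Hsd11b2 ran from −0.022 to 0.79 for ACTH, −0.052 to 0.35 for both hormones, 0.059 to 0.87 for ACTH over DEX and 0.10 to 0.91 right over left in ACTH rats. There the count of members called was 0 to 1, the 1 being without rat 1, where 2.85% of all probe sets were called. M14053_at ran from −0.0018 to 0.17 for ACTH, −0.043 to 0.41 for DEX, −0.34 to 0.11 for ACTH over DEX and −0.037 to 0.10 right over left. For rc_AA893618_s_at the ranges were −0.22 to 0.030 for ACTH, −0.10 to 0.15 for ACTH over DEX and −0.079 to 0.17 right over left. For rc_AI137538_at they were −0.12 to 0.017 for ACTH and −0.028 to 0.080 right over left. M36074_at ran from −0.20 to 0.097 for ACTH, −0.10 to 0.19 for ACTH over DEX, −0.145 to 0.0071 for both hormones and −0.092 to 0.20 right over left, and M36074_g_at from −0.16 to 0.058 for DEX.

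Over all probe sets, ACTH calls numbered 22, against 12 after quantile normalization, 12 without the rat term, 34 with a right kidney term for rats 5 to 8, 7 with the fat score, 108 with the distal score and 9 to 137 with a rat left out. ACTH over DEX had 30, against 10 after quantile normalization, 0 without the rat term, 0 with right kidneys alone, 66 with that right kidney term, 116 with the distal score, 15 without the intensity trend and 0 to 112 with a rat left out. Right over left in ACTH rats had 170, against 38 without the rat term and 99 to 249 with a rat left out. Both hormones over saline had 0, against 4 with the fat score, 12 with the distal score and up to 41 with a rat left out. DEX over saline had 0, and up to 3 with a rat left out. For ACTH over saline right kidneys alone gave 0. The named pathway genes kept their sign in every alternative run, but Akr1c14 with ACTH ran from 0.050 to 0.70, Scnn1a with ACTH from 0.14 to 0.77, Sgk1 with DEX from 0.21 to 1.52 and Hsp90b1 with DEX from 0.075 to 0.74. Low signal limits the receptor probe sets, and 2 rats per hormone limit every effect.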
